A study of Mus musculus with 18 samples.

Results

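Tight junctions and desmosomes are the cell contacts that seal and hold together epithelial sheets. In a tight junction, claudins, occludin and the MARVEL-domain proteins cross the membrane and are tied to actin by plaque proteins such as the zonula occludens family and cingulin. In a desmosome, the cadherins desmoglein and desmocollin are linked through armadillo proteins (plakoglobin and the plakophilins) and plakins (desmoplakin, periplakin, envoplakin) to keratin filaments. Mouse embryonic stem cells (ESCs) grow as compact epithelial colonies and express part of this set. The genes described here were the 44 rows, of 53672 genes listed, whose symbols named a claudin (Cldn followed by a number), Ocln, Marveld2 or Marveld3, F11r, a zonula occludens protein (Tjp followed by a number), Cgn, Cgnl1, Dsg2, Dsg3, Dsc2, Dsc3, Jup, Pkp1 to Pkp4, Dsp, Ppl or Evpl.

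RNA-seq counts came from 18 libraries of E14TG2a ESCs carrying loxP-flanked Hdac1 and Hdac2, in 6 groups of 3. Each of the 3 lines stably expressed an HDAC1 transgene, introduced with the piggyBac transposon, as the wild type (WT) or with the point mutation E63R or Y48E. HDAC1 is the catalytic subunit of several histone deacetylase complexes, and the study made these substitutions to change which complexes HDAC1 joins. Each line was left untreated or treated with 1 µM 4-hydroxytamoxifen (OHT), which triggers removal of endogenous HDAC1 and HDAC2, and was labelled as 5 days treated or untreated. The study's methods describe a shorter exposure to OHT followed by further culture, so the 5 days are not necessarily 5 days of exposure. All groups therefore shared the loxP alleles and a transgene, each transgene was represented by 1 line, and whether a line was 1 clone is not given in the sources used here. A difference between lines, as opposed to between treatments of 1 line, cannot be told apart from a difference between transfected cell populations.

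Counts on genes came to 9019615 to 11454638 per library. Values are counts per 1000000 counts (CPM), scaled by the trimmed mean of M values (TMM), and 3 counts corresponded to 0.248 to 0.343 CPM per library; a group whose mean is at or under the mean level of 3 counts is treated as at the floor. Summed over all exons, Hdac1 was at 200 to 210 CPM untreated and 168 to 178 CPM after OHT in WT, 94.7 to 110 and 112 to 131 in E63R, and 97.7 to 103 and 110 to 113 in Y48E. Hdac2, for which no transgene is named, was at 168 to 208 CPM untreated and 112 to 132 after OHT in WT, 152 to 209 and 149 to 158 in E63R, and 149 to 154 and 139 to 152 in Y48E, so its ranges separated in WT and overlapped in both mutants. These sums take in exons that may lie outside the deleted parts, and whether those of Hdac1 hold transgene reads is not given in the sources used here, so they do not check the labels. Replicate 3 of untreated E63R stood apart, with a TMM factor of 0.8147 against 0.9549 to 1.108 in the other libraries. Of the 20 junction genes over 10 CPM in untreated E63R, the 5 with the lowest ratio of replicate 3 to the mean of replicates 1 and 2 (0.427 to 0.563), Cgnl1, Tjp1 and Dsp among them, had summed exon lengths of 6199 to 9659 bases. The 5 with the highest ratio (1.21 to 1.95) were Cldn7, Cldn4, Pkp3, Cldn3 and F11r, with 1259 to 3616 bases. E63R results for the junction genes are therefore given with and without that library where it mattered.

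**Figure D1:**
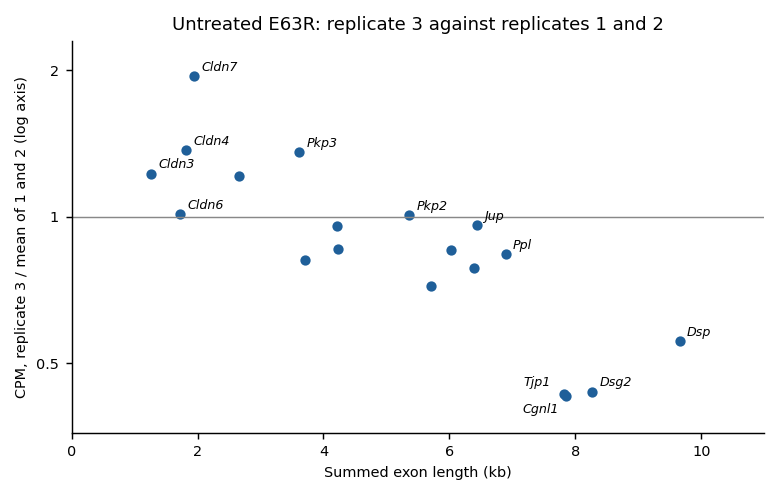
Ratio of CPM in untreated E63R replicate 3 to the mean of replicates 1 and 2 (log axis) against summed exon length in kb, 1 point for each of 19 junction genes over 10 CPM. Long genes such as Cgnl1 (0.427) and Dsp (0.554) lie below 1 and the short Cldn7 (1.95) and Cldn4 (1.37) above.

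Of the 44 genes, 34 had enough counts to be tested. The other 10 were Cldn1, Cldn2, Cldn8, Cldn13, Cldn14, Cldn16, Cldn17, Cldn22, Cldn24 and the desmoglein Dsg3. Cldn16, Cldn17 and Cldn24 had no count in any library, and the highest value among the 10 was 2.05 CPM (Cldn14). The filter also let through genes such as Cldn10, Cldn11 and Cldn23 that were above the floor mainly in some groups. In untreated WT ESCs, per kb of exon, Cldn4 was the most abundant at 97.7 CPM per kb. It was followed by Cldn6 at 40.0, the junctional adhesion molecule F11r at 32.0, Cldn7 at 25.2 and the zonula occludens gene Tjp1 at 21.3. Cldn3 was at 17.6 and the zonula occludens gene Tjp3 at 16.1. The genes grouped here as desmosomal, plakophilins included, were led by Pkp4 at 16.1, Jup at 15.9 and Dsp at 14.3 CPM per kb. Ocln was lower at 2.48 CPM per kb, Ppl at 2.11 and Marveld2 at 1.31.

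Reference promoters were taken for the tested junction genes, to show what lies at their starts. The RefSeq table (GRCm38.p6) held promoters for 22 of the 34 tested genes and for 5 of the 9 called after OHT (not for Cldn23, Dsc2, Pkp3 and Ppl), 32 promoters in all, each reaching from 250 bases before to 50 bases after a start. Each was searched on both strands for AACCNGTT (grainyhead-like factors), CACCTG (the E-box of SNAI and ZEB factors), CCGCCC (the GC box) and GCCNNNGGC (AP-2 factors). These letters can overlap each other. The numbers of the 32 promoters with a match were 2, 13, 23 and 11, in that order, where 2.1%, 20.2%, 35.7% and 16.6% of all 32851 promoters of this length held one. Some genes had more than 1 promoter, with overlapping windows, and by gene the numbers were 2, 10, 19 and 8 of 22. The 5 genes called after OHT held 7 of these promoters, of which 0, 3, 7 and 2 had a match. A match is only a run of letters. Below are the 250 bases before the start of the 2 genes called after OHT in at least 1 line whose window overlapped no annotated exon, 5′ to 3′ on the gene's strand, with motif matches in capitals. Cldn11 rose in both mutant lines, and no motif matched in the 250 bases shown, while its whole promoter held 1 GC box that reached into the 50 bases after the start. Cgnl1 rose in Y48E, and of the 3 GC boxes in its promoter 2 lie in the bases shown, in reverse orientation.
Cldn11 (chr3:31149670-31149919, plus strand): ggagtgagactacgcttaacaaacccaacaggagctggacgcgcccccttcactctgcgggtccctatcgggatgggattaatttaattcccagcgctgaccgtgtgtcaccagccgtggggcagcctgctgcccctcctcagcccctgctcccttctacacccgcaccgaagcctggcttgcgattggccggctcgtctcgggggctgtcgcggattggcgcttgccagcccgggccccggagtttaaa
Cgnl1 (chr9:71771603-71771852, minus strand): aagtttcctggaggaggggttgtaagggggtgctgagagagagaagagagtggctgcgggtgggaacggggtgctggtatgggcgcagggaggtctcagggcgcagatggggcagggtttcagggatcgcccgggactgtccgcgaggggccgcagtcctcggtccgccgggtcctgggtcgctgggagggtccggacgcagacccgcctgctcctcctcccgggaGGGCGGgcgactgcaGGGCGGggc

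In the WT rescue line, edgeR called 0 of the 34 junction genes after OHT, where a call needed an edgeR adjusted p under 0.01 over all genes tested and a change beyond 2-fold. DESeq2 also called 0, and 1 gene was higher and 2 lower at an unadjusted p under 0.05. Over all 18791 genes tested, 0.0373% were called higher and 0.016% lower. The median log2 fold change of the junction genes was -0.03 (-0.04 with genes that were at the floor in 1 group set to their ratio to the floor), against 0 over all genes.

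In the E63R line 4 junction genes were called higher and 0 lower. These were the claudins Cldn11 and Cldn23, the desmosomal cadherin Dsc2 and the plakin Ppl. They made up 11.8% of the 34 tested, where 4.74% of all genes were called higher and 1.18% lower. DESeq2 called 0 lower too, and 4 junction genes were lower at an unadjusted p under 0.05. The median log2 fold change was 0.38, against 0.03 over all genes.

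In the Y48E line 7 were called higher and 1 lower. Cldn11, Cldn23 and Ppl rose here too, joined by Cldn6, the tricellulin gene Marveld2, the cingulin-like gene Cgnl1 and the plakophilin Pkp3, and Cldn19 fell. The 7 made up 20.6% of the tested genes and the 1 made up 2.94%, where 10.8% of all genes were called higher and 5.84% lower. The median log2 fold change was 0.44, against 0.05 over all genes. The 24 genes that were not called and above the floor in both groups in Y48E spanned log2 fold changes of -1.09 to 1.84, and in E63R 26 such genes spanned -0.61 to 0.92. The 2 mutant lines were each compared with their own untreated cells.

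**Figure D2:**
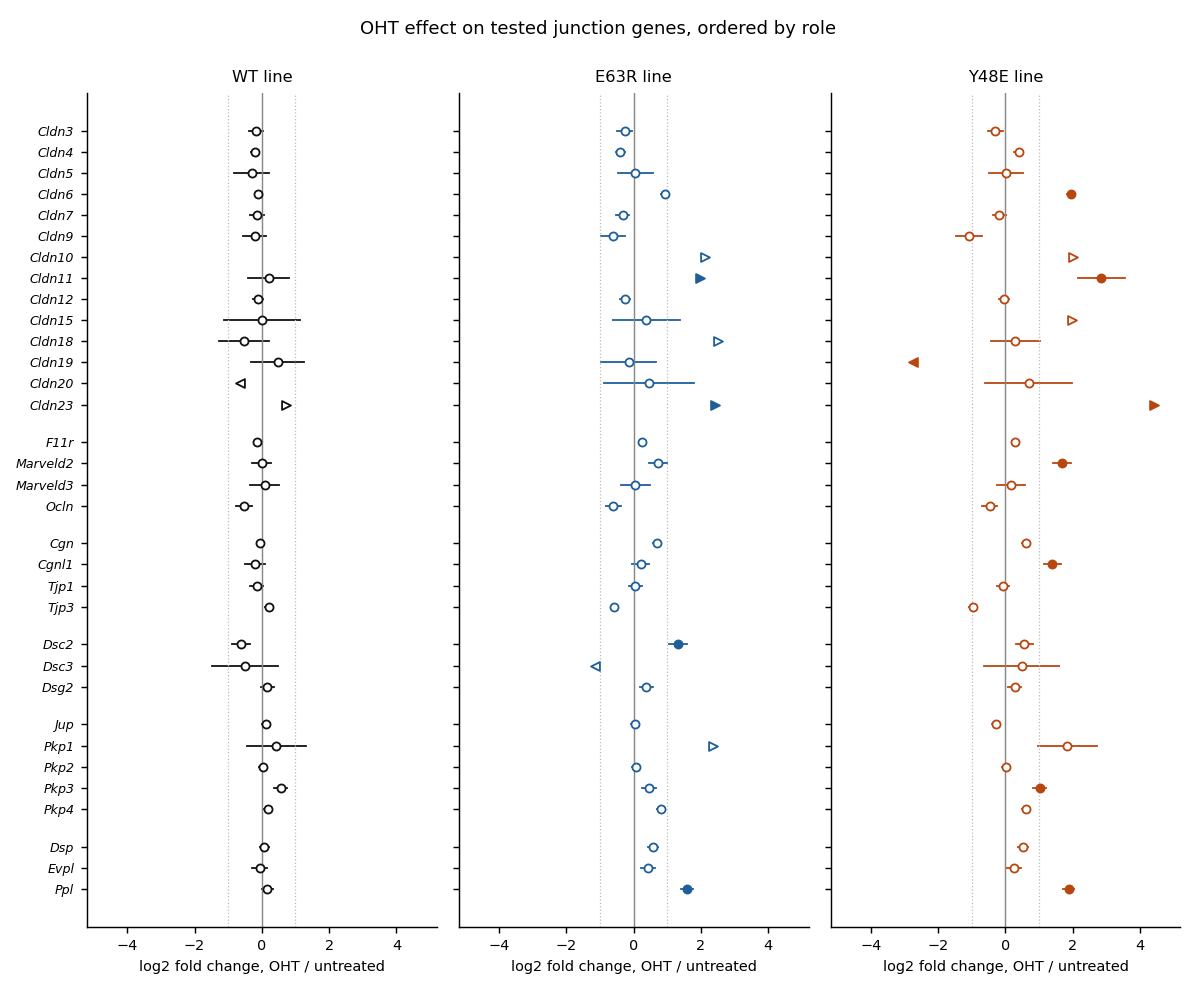
Log2 fold change, OHT over untreated, for 33 of the 34 tested junction genes in the WT, E63R and Y48E lines, in blocks from claudins (top) to plakins (bottom). Circles carry standard errors, triangles stand at the ratio to the floor where 1 group was at it (no symbol where both were), filled symbols were called and dotted lines mark 2-fold; no symbol is filled for WT, 4 for E63R and 8 for Y48E.

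Cldn6, a claudin of early embryonic epithelia, was the most abundant of the called genes. Its CPM in replicates 1 to 3 was 75.4, 60.8 and 70.1 in untreated WT and 62.4, 65.7 and 62.4 after OHT. In E63R it was 66.6, 69.5 and 68.9 untreated and 131, 131 and 125 after OHT. In Y48E it was 70.4, 67.4 and 63.5 untreated and 245, 249 and 277 after OHT. The untreated ranges of the 3 lines overlapped, and after OHT both mutants lay above every other library, Y48E furthest. The fold change was 3.83 in Y48E (log2 1.94 ± 0.10 SE, edgeR adjusted p = 2.97e-12). In E63R it was 1.89-fold (log2 0.92 ± 0.10, edgeR adjusted p = 7.29e-07), which passed the p limit and fell short of 2-fold. In WT the log2 change was -0.11 ± 0.10 (edgeR adjusted p = 0.791).

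The OHT effect on Cldn6 differed between every pair of lines. It was larger than in WT by 1.03 ± 0.14 on the log2 scale in E63R (edgeR adjusted p = 7.58e-05) and by 2.05 ± 0.14 in Y48E (edgeR adjusted p = 9.13e-10), and larger in Y48E than in E63R by 1.02 ± 0.14 (edgeR adjusted p = 8.18e-05). The first and the last sat at the 2-fold limit. The E63R difference from WT dropped to 0.96 without WT untreated replicate 1. The difference between the mutants dropped to 0.99 without E63R OHT replicate 3, to 0.96 without Y48E OHT replicate 3 and to 0.98 without Y48E untreated replicate 3, with edgeR adjusted p of at most 0.000565 in each. Without E63R untreated replicate 3 the E63R change was 0.92 and the difference from WT 1.04.

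Cldn9 lies tail to tail with Cldn6 on chromosome 17, Cldn6 at chr17:23679249-23682446 on the plus strand and Cldn9 at chr17:23682584-23684026 on the minus strand (GENCODE M21, mm10). Cldn9 was at 2.53, 2.62 and 4.41 CPM in untreated Y48E and 1.504, 1.18 and 1.80 after OHT. Its values were lower with no overlap, but it was not called (log2 -1.09 ± 0.39, edgeR adjusted p = 0.0293).

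Cldn23 had no count in any untreated library of either mutant. After OHT it reached 2.40, 1.71 and 0.977 CPM in E63R and 9.52, 5.89 and 5.93 CPM in Y48E. In WT it was 0, 0.633 and 0 untreated and 0.769, 0 and 0.617 after OHT. Against the floor, the mean was at least 5.31-fold higher in E63R (edgeR adjusted p = 0.00384) and at least 21.5-fold higher in Y48E (edgeR adjusted p = 9.33e-05). The E63R call was lost without E63R OHT replicate 1 (edgeR adjusted p = 0.0145) or E63R untreated replicate 1 (0.0125), and with only the libraries compared in the fit (0.0166). The difference from the WT effect was not called for either mutant (edgeR adjusted p = 0.122 for E63R and 0.0115 for Y48E), and that for Y48E was called without WT untreated replicate 1 (0.00734) or 3 (0.00766).

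Cldn11, a claudin of myelin and Sertoli cell junctions, started low in the mutants. It was at 2.88, 3.53 and 2.20 CPM in untreated WT, and at 0, 0.113 and 0 in untreated E63R and 0, 1.14 and 0.538 in untreated Y48E. After OHT it was at 1.92, 4.71 and 3.26 in WT, 1.41, 0.571 and 1.76 in E63R and 5.61, 2.54 and 4.13 in Y48E. The treated Y48E values overlapped those of WT, while those of E63R stayed below. In E63R the rise went from 1 count to 41 over the 3 libraries, a ratio of 35.5 in scaled counts with a 95% counting interval of 6.02 to 1436 (edgeR adjusted p = 0.00320). In Y48E it was 7.23-fold (log2 2.85 ± 0.71, edgeR adjusted p = 0.00249). Without OHT, WT held 92 counts against that 1 in E63R, a ratio of 82.4 (95% counting interval 14.4 to 3288, edgeR adjusted p = 0.000171). The E63R rise was lost without E63R OHT replicate 1 or 3 or E63R untreated replicate 1 (edgeR adjusted p of 0.0106 to 0.0171). The Y48E rise was lost without Y48E OHT replicate 1 or Y48E untreated replicate 1 or 3 (0.0113 to 0.0142). Neither effect was called as different from that in WT (edgeR adjusted p = 0.0431 and 0.0444).

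Cldn19, a claudin of kidney and retinal epithelia, went the other way in Y48E. It was at 1.98, 1.59 and 2.15 CPM untreated and at 0, 0 and 0.449 after OHT. The treated mean was under the floor, and the 52 untreated counts against 5 treated ones gave a ratio of 12.3 (95% counting interval 4.94 to 39.4, edgeR adjusted p = 0.00624). The call was lost when any of 5 of the 6 libraries was left out: Y48E OHT replicate 1 or 2, or Y48E untreated replicate 1, 2 or 3 (edgeR adjusted p of 0.0105 to 0.031). In WT it was at 0.769 to 3.90 CPM and in E63R at 0.909 to 1.47 CPM after OHT. The difference from the WT effect was not called (edgeR adjusted p = 0.0262), except without Y48E OHT replicate 3 (0.00431). An antisense gene, Gm12927, overlaps 2.1% of its exons.

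**Figure D3:**
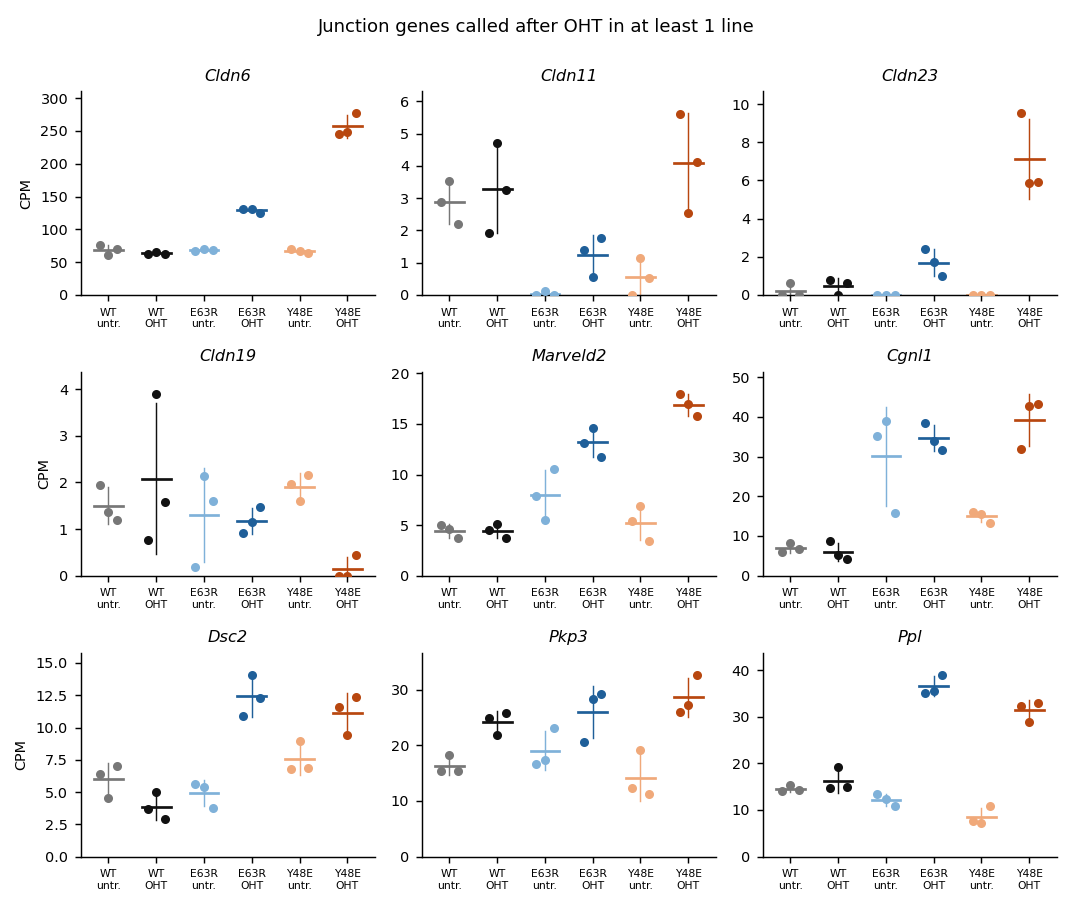
CPM of the 9 junction genes called after OHT in at least 1 line, with 1 point per library, the mean as a bar and the SD as a vertical line, by line and treatment. Cldn6 and Ppl in both mutants sit apart from all 3 untreated groups, and Cgnl1 in untreated E63R and Y48E already lies above WT.

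Cldn6 also held a larger share of the claudin mRNAs after OHT in both mutants, compared per kb of exon over all 23 claudins. Its share was 19.96% ± 2.5 (SD, n = 3) in untreated WT and 20.9% ± 2.7 after OHT. It was 17.4% ± 2.6 in untreated E63R and 33.2% ± 0.99 after OHT, and 16.1% ± 0.48 in untreated Y48E and 37.8% ± 0.96 after OHT. Cldn4 held the largest share in every group, 48.7% ± 0.71 in untreated WT, and went from 58.8% ± 1.6 to 45.8% ± 1.2 in E63R and from 57.9% ± 1.8 to 46.6% ± 1.3 in Y48E. The summed claudin level was 186 to 211 CPM per kb in untreated WT and 151 to 199 after OHT, 207 to 275 and 222 to 235 in E63R, and 236 to 253 and 383 to 414 in Y48E. The summed level after OHT lay above the untreated range in Y48E. In E63R it did so without untreated replicate 3, since the other 2 untreated libraries were at 207 and 212, and no test was run on these sums.

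**Figure D4:**
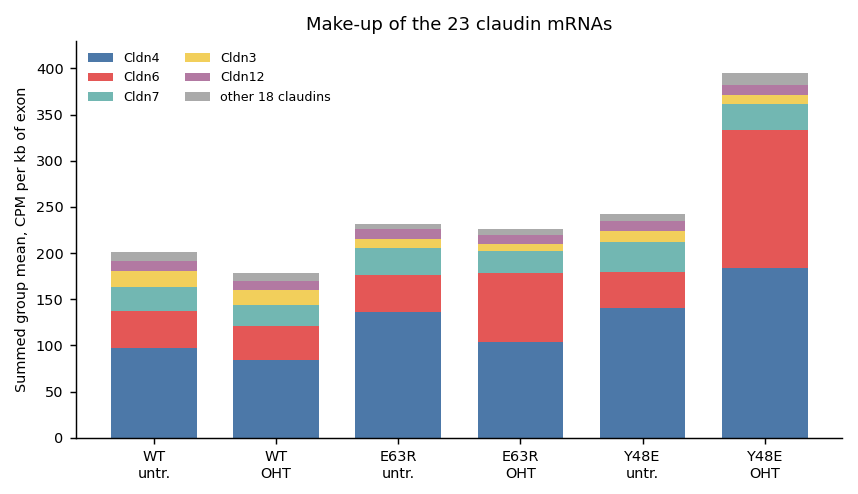
Group means of the claudin mRNAs in CPM per kb of exon, stacked for Cldn4, Cldn6, Cldn7, Cldn3, Cldn12 and the other 18 claudins, by line and treatment (3 libraries each). The Cldn6 block takes 37.8% of the column in Y48E after OHT, against 16.1% untreated.

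Cldn4 itself was not called. It was at 185, 181 and 167 CPM in untreated WT, 225, 216 and 302 in untreated E63R and 270, 240 and 253 in untreated Y48E. After OHT it was at 166, 170 and 124 in WT, 180, 200 and 186 in E63R and 331, 317 and 353 in Y48E. The OHT change of 0.39 ± 0.12 in Y48E had an edgeR adjusted p of 0.0142, and -0.39 ± 0.12 in E63R one of 0.0238, or -0.23 ± 0.09 (0.0423) without untreated replicate 3. Cldn7, another claudin of simple epithelia, was at 53.7, 54.2 and 39.6 CPM in untreated WT and 48.3, 49.1 and 36.6 after OHT. It was at 47.3, 39.1 and 84.1 in untreated E63R, where 84.1 is replicate 3, and 42.6, 46.8 and 46.2 after OHT. In Y48E it was at 69.4, 62.7 and 58.7 untreated and 51.1, 62.6 and 54.3 after OHT, and log2 changes of -0.14, -0.33 and -0.18 for WT, E63R and Y48E were not called. Without untreated replicate 3 the E63R change was 0.06 ± 0.14. Cldn10 and Cldn18 were near the floor and were not called in any line.

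Among the other membrane proteins of the tight junction, Marveld2 rose in Y48E and Ocln was not called in any line. Marveld2 encodes tricellulin, found where 3 cells meet. It was at 5.02, 4.62 and 3.70 CPM in untreated WT and 4.52, 5.07 and 3.70 after OHT. It was at 7.85, 5.53 and 10.5 in untreated E63R and 13.1, 14.7 and 11.7 after OHT, and at 5.38, 6.94 and 3.44 in untreated Y48E and 17.9, 16.9 and 15.8 after OHT. The groups did not overlap in either mutant and overlapped in WT. Y48E rose 3.22-fold (log2 1.69 ± 0.26, edgeR adjusted p = 2.29e-05), by 1.69 ± 0.38 more than WT (edgeR adjusted p = 0.00266), and the calls held with each library left out. E63R gave 0.73 ± 0.26 (edgeR adjusted p = 0.0409), or 0.97 ± 0.28 (0.00704) without untreated replicate 3, under 2-fold in both.

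Ocln, the gene of occludin, was at 10.6, 12.7 and 8.19 CPM in untreated WT and 8.75, 8.24 and 5.03 after OHT. It was at 17.1, 15.3 and 15.5 in untreated E63R and 12.5, 11.04 and 8.01 after OHT, and at 12.7, 14.6 and 18.6 in untreated Y48E and 12.2, 10.1 and 10.8 after OHT. The fitted change was downward in all 3 lines (log2 -0.52, -0.60 and -0.47), with edgeR adjusted p of 0.471, 0.0597 and 0.105. F11r and Marveld3 were not called in any OHT comparison.

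In the plaque, Cgnl1 rose in Y48E, and Tjp3 was lower after OHT in both mutants, within 2-fold. Cgnl1 encodes paracingulin. It was at 5.85, 8.33 and 6.69 CPM in untreated WT and 8.66, 5.16 and 4.32 after OHT, and at 15.9, 15.6 and 13.3 in untreated Y48E and 31.8, 42.7 and 43.3 after OHT. In E63R it was at 35.3, 39.0 and 15.9 untreated and 38.4, 33.9 and 31.7 after OHT. E63R thus reached the treated Y48E level without OHT, apart from replicate 3. The Y48E rise was 2.63-fold (log2 1.39 ± 0.26, edgeR adjusted p = 0.000156).

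The Cgnl1 rise in Y48E was larger than the WT effect by 1.60 ± 0.39 (edgeR adjusted p = 0.00471). That call was lost without WT OHT replicate 2 or 3, WT untreated replicate 2, Y48E OHT replicate 2 or 3, or Y48E untreated replicate 2 or 3, with log2 differences of 1.41 to 1.63 and edgeR adjusted p of 0.0101 to 0.0196. It exceeded the E63R effect by 1.19 ± 0.36 (edgeR adjusted p = 0.0546). Without E63R untreated replicate 3 this became 1.49 ± 0.25 (edgeR adjusted p = 2.77e-05) and was called.

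Tjp3 (zonula occludens 3) was at 63.9, 58.2 and 57.2 CPM in untreated WT and 67.4, 70.5 and 70.6 after OHT. It was at 98.6, 86.8 and 75.4 in untreated E63R and 57.5, 58.1 and 59.7 after OHT, and at 85.0, 91.5 and 77.5 in untreated Y48E and 41.0, 44.9 and 44.1 after OHT. Mutant values lay above WT without OHT and below it with OHT. The change of -0.97 ± 0.11 in Y48E (edgeR adjusted p = 3.91e-07) and -0.57 ± 0.11 in E63R (edgeR adjusted p = 0.000547) stayed within 2-fold. Without Y48E untreated replicate 3 the Y48E change was -1.03 ± 0.12 (edgeR adjusted p = 1.46e-06) and was called. The difference from WT was called for Y48E (-1.18 ± 0.16, edgeR adjusted p = 8.61e-06), and not for E63R (-0.79 ± 0.15, edgeR adjusted p = 0.00315, within 2-fold).

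Tjp1 (zonula occludens 1) was at 156, 172 and 171 CPM in untreated WT and 157, 144 and 148 after OHT. In E63R it was at 180, 207 and 83.7 untreated, 83.7 being replicate 3, and 165, 167 and 156 after OHT. In Y48E it was at 159, 167 and 146 untreated and 153, 149 and 145 after OHT, and log2 changes of -0.15, 0.05 and -0.08 for WT, E63R and Y48E were not called. Without replicate 3 the E63R change was -0.25 ± 0.08 (edgeR adjusted p = 0.0133), not called either. Cgn, which shares 1716 bases at 98.7% identity with BC021767 so that reads could be split between them, was 1.61-fold higher in E63R and 1.52-fold higher in Y48E (edgeR adjusted p = 0.000133 and 0.000196), within 2-fold.

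Among desmosomal cadherins, Dsc2 (desmocollin 2) rose in E63R. It was at 6.41, 4.53 and 6.99 CPM in untreated WT and 3.65, 4.98 and 2.91 after OHT. It was at 5.63, 5.41 and 3.77 in untreated E63R and 10.9, 14.1 and 12.3 after OHT, and at 6.81, 8.98 and 6.88 in untreated Y48E and 11.6, 9.42 and 12.4 after OHT. The treated ranges of both mutants overlapped each other and lay above treated WT. The E63R change was 2.51-fold (log2 1.33 ± 0.26, edgeR adjusted p = 0.000729), or 1.17 ± 0.29 (0.00186) without untreated replicate 3, and was not called with only the libraries compared in the fit (0.0152). That in Y48E was 0.56 ± 0.25 (edgeR adjusted p = 0.0787). The effects in the 2 mutants were not called as different, at -0.76 ± 0.36 for Y48E minus E63R (edgeR adjusted p = 0.257). The E63R effect exceeded that in WT by 1.96 ± 0.37 (edgeR adjusted p = 0.00262), a call lost without E63R OHT replicate 2 (0.0113) or WT untreated replicate 3 (0.0101), or with only the libraries compared (0.0140). Dsg2 and Dsc3 were not called.

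Of the armadillo proteins, Pkp3 was called in Y48E only at the limit. Plakophilin 3 was at 12.3, 19.1 and 11.2 CPM in untreated Y48E and 26.0, 27.3 and 32.7 after OHT, a 2.02-fold rise (log2 1.01 ± 0.20, edgeR adjusted p = 0.000276). It was at 15.4, 18.3 and 15.4 in untreated WT and 25.0, 21.8 and 25.8 after OHT, and at 16.6, 17.4 and 23.1 in untreated E63R and 20.7, 28.4 and 29.2 after OHT. WT values were higher after OHT with no overlap too (log2 0.56 ± 0.20, edgeR adjusted p = 0.277), and the Y48E effect was not called as different from WT (0.45 ± 0.28, edgeR adjusted p = 0.266). The Y48E change fell under 2-fold without Y48E OHT replicate 3 (0.91) or Y48E untreated replicate 1 (0.92) or 3 (0.87).

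Pkp4, the most abundant plakophilin in WT per kb, passed the p limit within 2-fold in E63R (0.82 ± 0.12, edgeR adjusted p = 3.04e-05) and Y48E (0.60 ± 0.12, edgeR adjusted p = 0.000299). Jup, the gene of plakoglobin, shares 150 bases at 95.3% identity with Gm49447. It was at 93.2, 104 and 109 CPM in untreated WT and 102, 97.8 and 134 after OHT. It was at 128, 118 and 118 in untreated E63R and 117, 135 and 122 after OHT, and at 111, 99.6 and 87.6 in untreated Y48E and 74.7, 89.3 and 82.6 after OHT. Its groups overlapped in all 3 lines, and log2 changes of 0.13, 0.04 and -0.27 were not called.

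Ppl rose in both mutants, the only plakin called after OHT. Periplakin was at 14.03, 15.4 and 14.3 CPM in untreated WT and 14.8, 19.3 and 14.8 after OHT. It was at 13.4, 12.3 and 10.7 in untreated E63R and 35.1, 35.6 and 39.0 after OHT, and at 7.69, 7.16 and 10.8 in untreated Y48E and 32.4, 28.9 and 33.0 after OHT. Treated mutant libraries lay above every untreated and every WT library. The fold change was 3.00 in E63R (log2 1.59 ± 0.17, edgeR adjusted p = 6.31e-07) and 3.67 in Y48E (log2 1.88 ± 0.17, edgeR adjusted p = 1.68e-08), larger than in WT by 1.42 ± 0.24 (edgeR adjusted p = 0.000675) and 1.71 ± 0.24 (edgeR adjusted p = 1.81e-05). These calls held with each library left out, and without E63R untreated replicate 3 the E63R change was 1.505 ± 0.19. The effects in the mutants were not called as different (0.29 ± 0.24, edgeR adjusted p = 0.576).

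Dsp, the gene of desmoplakin, passed the p limit within 2-fold in both mutants, at 0.58 ± 0.15 in E63R and 0.52 ± 0.15 in Y48E (edgeR adjusted p = 0.00702 and 0.00778). Without untreated replicate 3 the E63R change was 0.35 ± 0.10 (edgeR adjusted p = 0.00429). Dsp was at 135, 132 and 147 CPM in untreated WT and 148, 135 and 154 after OHT. It was at 56.8, 57.0 and 31.5 in untreated E63R and 71.9, 79.6 and 66.1 after OHT, and at 65.3, 62.2 and 69.2 in untreated Y48E and 92.2, 93.3 and 95.8 after OHT. Both mutants stayed below WT with and without OHT. Gm10129 overlaps 5.2% of the Dsp exons on the other strand. Per kb, the Ppl share of the 3 plakin mRNAs went from 19.96% ± 3.0 to 33.6% ± 2.8 in E63R and from 12.7% ± 2.1 to 28.1% ± 1.9 in Y48E, and was 11.9% ± 0.86 and 12.6% ± 2.2 in WT.

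The lines already differed without OHT. Against untreated WT, E63R had 2 junction genes called higher (Cgnl1 and Pkp2) and 2 called lower (Cldn11 and Dsp), where 3.32% of all genes were called higher and 4.33% lower. Y48E had 1 called higher (Cgnl1) and 1 called lower (Dsp), where the shares over all genes were 2.62% and 2.95%. Cgnl1 was 4.32-fold higher in E63R (log2 2.11 ± 0.27, edgeR adjusted p = 5.32e-06), or 2.42 ± 0.20 without replicate 3. In Y48E it was 2.14-fold higher (log2 1.10 ± 0.28, edgeR adjusted p = 0.00646). The Y48E call was lost without WT untreated replicate 1 or 3 or any 1 Y48E untreated library (edgeR adjusted p of 0.012 to 0.0391). Dsp was lower by log2 -1.51 ± 0.15 in E63R (edgeR adjusted p = 1.87e-07), -1.27 ± 0.10 without replicate 3, and by -1.07 ± 0.15 in Y48E (edgeR adjusted p = 1.76e-05).

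Pkp2, the gene of plakophilin 2, differed between lines and was not called after OHT in any of them. It was at 36.7, 45.8 and 42.7 CPM in untreated WT and 42.1, 48.6 and 37.2 after OHT, at 117, 95.5 and 107 in untreated E63R and 117, 120 and 99.7 after OHT, and at 66.4, 62.99 and 62.4 in untreated Y48E and 62.2, 67.9 and 62.2 after OHT. The 3 lines formed separate ranges, in the order WT, Y48E, E63R. Untreated E63R was 2.55-fold above WT (log2 1.35 ± 0.12, edgeR adjusted p = 3.98e-08), and Y48E 1.53-fold (log2 0.61 ± 0.12, edgeR adjusted p = 0.000813, within 2-fold). Log2 changes on OHT were 0.03, 0.08 and 0.00 in WT, E63R and Y48E, none called.

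**Figure D5:**
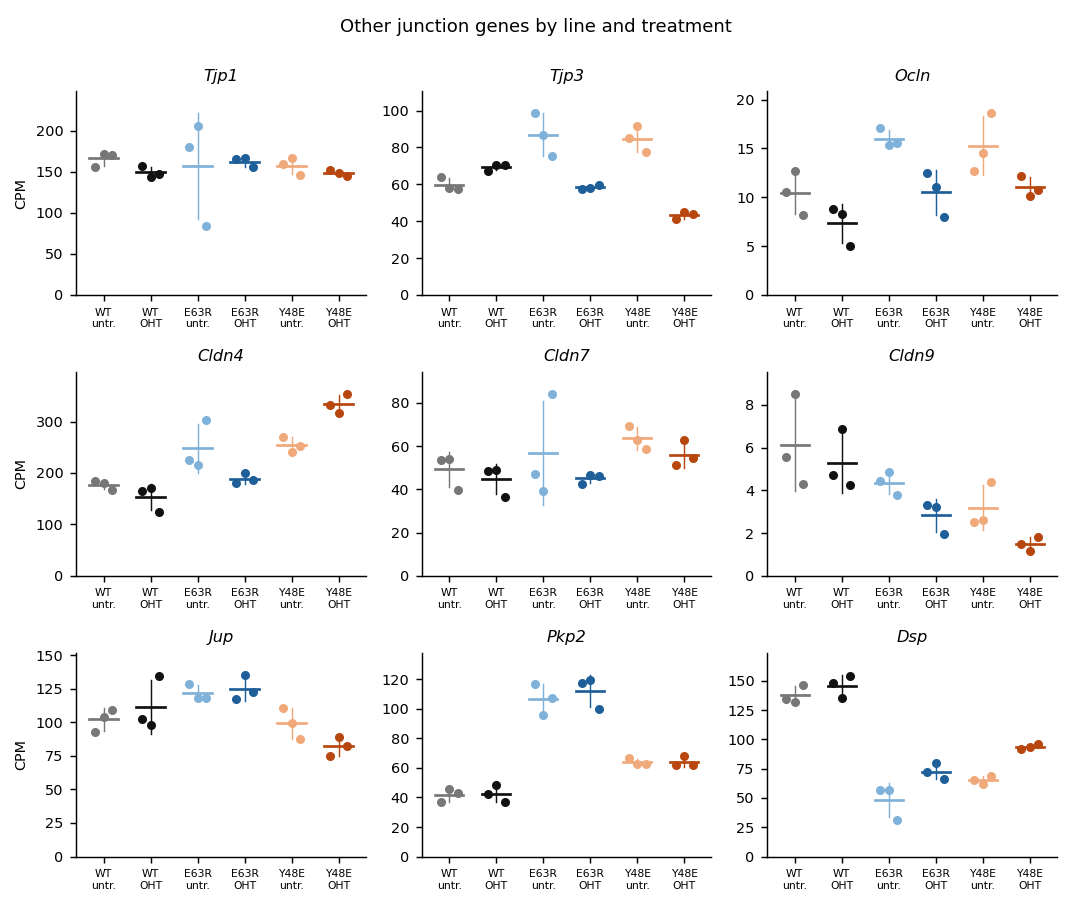
CPM of Tjp1, Tjp3, Ocln, Cldn4, Cldn7, Cldn9, Jup, Pkp2 and Dsp, with 1 point per library, the mean as a bar and the SD as a vertical line, by line and treatment. Pkp2 and Dsp separate the lines with and without OHT, Tjp3 is lower after OHT in both mutants, and E63R untreated replicate 3 (the right-hand point of its group) is low for Tjp1 and Dsp.

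The OHT effects were then compared between lines over all 34 genes. Against WT, 3 were called higher in E63R (Cldn6, Dsc2 and Ppl) and 0 lower, where 1.25% of all genes were called higher and 0.436% lower. For Y48E 4 were called higher (Cgnl1, Cldn6, Marveld2 and Ppl) and 1 lower (Tjp3), where 4.65% and 3.97% of all genes were called. Both comparisons used the same WT libraries. Between the mutants, Y48E minus E63R, 1 gene was called higher (Cldn6) and 0 lower, where 0.319% and 0.99% of all genes were called. By DESeq2 the 2 counts of 0 lower were also 0, and at an unadjusted p under 0.05 they were 1 for E63R minus WT and 4 for Y48E minus E63R.

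Genes of other junctions were read from lists beside these. In WT, edgeR called 0 of the 86 genes tested on these lists, with 10 higher and 6 lower at an unadjusted p under 0.05. Over all genes tested, 4.74% were called higher and 1.18% lower after OHT in E63R, and 10.8% and 5.84% in Y48E. Of 12 tested adherens junction genes, edgeR called 1 higher and 0 lower in each mutant. At an unadjusted p under 0.05, 4 of them were lower in E63R and 1 in Y48E. Of 10 tested genes of other desmosomal, keratin and cornified envelope proteins, 7 were called higher in E63R and 8 in Y48E. At an unadjusted p under 0.05, 4 of the 10 were higher in WT. As different from the WT effect, 3 were called higher for E63R and 4 for Y48E, with neither Krt14 nor Krt5 among them. Over all genes tested, 1.25% and 4.65% were called higher in these 2 contrasts. Krt14, a basal keratinocyte keratin, went from 0.0923 ± 0.16 to 11.4 ± 1.2 CPM (SD, n = 3) in E63R and from 0 to 29.0 ± 1.9 in Y48E. The E63R ratio, from 3 counts to 375, was 108 (95% counting interval 36.7 to 527), and the Y48E rise was at least 87.7-fold against the floor. Krt5, its partner, had no count in any untreated mutant library and reached 11.4 ± 0.87 and 15.3 ± 0.89 CPM. In WT, Krt14 went from 0 to 0.216 ± 0.20 CPM and Krt5 from 0.0666 ± 0.12 to 0.673 ± 0.14, neither called. Hemidesmosomes anchor cells to the basement membrane. Of 9 tested hemidesmosome genes, 3 were called higher in each mutant, the laminin genes Lama3 and Lamb3 among them. Lama3 went from 4.31 to 7.94 CPM in WT (not called). As different from the WT effect, Lama3 was called in neither mutant and Lamb3 only in Y48E.

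Of 27 tested tight junction partners and polarity genes, 2 were called higher in E63R, Amot and Magi3, where 4.74% of all genes were. Magi3 was at the 2-fold limit there (log2 1.03 ± 0.24 SE, edgeR adjusted p = 0.00333), from an untreated mean of 11.8 ± 5.6 CPM (SD, n = 3). Genes of these lists were not read without E63R untreated replicate 3. In Y48E 5 were called higher (with Amotl2, Jam3 and Mpdz) and 1 lower, where 10.8% and 5.84% of all genes were. The lower one was Ildr1, an angulin that recruits tricellulin, which fell from 80.1 ± 1.2 to 24.05 ± 3.3 CPM. Of 10 tested gap junction genes, 1 rose in each mutant, Gja3, and 3 fell in Y48E, Gja1 and Gjb5 among them. Gja3 went from 1.00 to 2.34 CPM in WT (not called), and its effect was not called as different from WT in either mutant. Of 13 tested epithelial transcription factors, 1 was called higher in E63R, and 2 higher and 2 lower in Y48E. Grhl2, an activator of claudin genes, rose from 12.8 ± 1.8 to 26.6 ± 1.6 CPM in E63R and from 21.3 ± 1.3 to 55.0 ± 7.0 in Y48E. In WT Grhl2 was at 29.9 ± 3.6 CPM untreated and 25.3 ± 4.8 after OHT, so treated E63R was near the WT level. Trp63 also rose and Grhl3 and Elf3 fell in Y48E, and of 5 repressors of epithelial genes edgeR called 0 in either mutant, with 1 lower in E63R and 1 in each direction in Y48E at an unadjusted p under 0.05.

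Summed levels of cell type markers also differed between some groups, and their part in the results was not tested. In a bulk sample, fewer cells of a type and less RNA per cell cannot be told apart. All 10 ESC markers were detected in every library. Their summed level was 8692 to 8815 CPM in untreated WT and 9085 to 9961 after OHT. It was 5899 to 9187 (median 6407) and 5062 to 5368 in E63R, and 6459 to 6535 and 2825 to 2977 in Y48E. Marker sums were not read without E63R untreated replicate 3. Keratinocyte markers, 10 listed, summed to 46.9 to 56.0 CPM in untreated WT and 64.6 to 75.3 after OHT, 45.5 to 70.5 and 204 to 229 in E63R, and 36.8 to 48.8 and 224 to 243 in Y48E. Of these 10, Ivl stayed under the floor in at least 1 library of every group, and Sfn made up most of the sum. Members went both ways: in Y48E Krt14 went from 0 to 29.0 and Krt10 from 4.71 to 1.53 CPM.

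Trophoblast markers summed to 225 to 248 CPM in untreated WT and 250 to 282 after OHT, 93.0 to 105 and 179 to 191 in E63R, and 100 to 111 and 144 to 156 in Y48E, with Tpbpa not above the floor throughout any group. Primitive endoderm markers summed to 458 to 470 and 382 to 464 CPM in WT, 150 to 186 and 182 to 191 in E63R, and 226 to 244 and 249 to 278 in Y48E. Tfap2c made up most of the trophoblast sum in WT, and Sparc most of the primitive endoderm sum in every group. Members of both lists went both ways. In Y48E the trophoblast markers Hand1 and Ascl2 went from 1.70 to 16.4 and from 17.4 to 7.79 CPM. The primitive endoderm markers Dab2 and Gata4 went from 8.20 to 30.3 and from 7.08 to 5.47 CPM. Fibroblast markers, most of whose sum was Fn1, were at 1173 to 1337 and 1225 to 1289 CPM in WT. They were at 426 to 1163 (median 1079) and 535 to 584 in E63R, and 1043 to 1195 and 445 to 466 in Y48E. Dcn, Lum and Postn were not above the floor throughout any group. Members of this list went both ways too: in Y48E Fn1 went from 935 to 294 and Col1a1 from 3.66 to 30.9 CPM.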

How the data were processed

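Per the labels, total RNA of E14TG2a ESCs was prepared with the NEB Next Ultra kit, and the submitters' processing notes name HISAT2 2.1.0, SAMtools 1.9, HTSeq and mm10. The strand setting and annotation used for counting are not given in the sources used here. The authors deposited 1 file of raw counts per gene for each of the 18 libraries. Entries naming no gene (59.4 to 61.2% of the total) were left out, and 0 columns belonged to other samples. Counts of all libraries were fitted together with edgeR 4.0.16 (quasi-likelihood, TMM, 1 mean per group, filterByExpr), which tested 18791 genes. Following the thresholds of the study, a gene was called where p, adjusted by the Benjamini-Hochberg method, was under 0.01 with a change beyond 2-fold, and differences of OHT effects were tested as contrasts. The labels give replicate numbers without saying that libraries came from separate cultures, while the study speaks of biological replicates, so p-values measure the spread between these libraries. Where a group under the floor (3 counts per library) held counts, the ratio of summed, scaled counts was given with its exact Clopper-Pearson interval. Intervals and floors cover counting error only. Replicate numbers did not pair libraries: 0 of 45 correlations of same-numbered libraries passed 0.1 (-0.0515 to 0.0441). Positions and exon lengths came from GENCODE M21 (mm10), and similar sequences of at least 150 bases and 95% identity from BLAST 2.17.0.

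Genes given library by library were those called in at least 1 OHT comparison with a group mean of at least 1 CPM, and Tjp1, Ocln, Jup, Dsp, Cldn6 and Cldn7. Tjp3, Cldn4, Cldn9 and Pkp2 were added after their values were seen. Genes of other lists were limited to 3 with values. The members and lists were chosen with earlier results of these data known. Alternatives were DESeq2 1.42.0, its size factors, no filter, a replicate block, only the libraries compared, an adjusted p of 0.05, glmTreat against 2-fold, and leaving out each library. Proteins were not analysed here, and values of some genes are not reported here.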

Additional observations from a re-analysis of the deposited data

Results flagged for a closer look

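Differences of OHT effects between lines that passed the test stand here by value, on the log2 scale and by edgeR. In E63R minus WT, the effect was higher for Cldn6 by 1.03, for Dsc2 by 1.96 and for Ppl by 1.42. In Y48E minus WT, it was higher for Cgnl1 by 1.60, for Cldn6 by 2.05, for Marveld2 by 1.69 and for Ppl by 1.71, and for Tjp3 it was -1.18. In Y48E minus E63R, it was higher for Cldn6 by 1.02. The comparisons with WT share the WT libraries. Groups of 3 libraries are too small for a search for single outlying values.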

How the results depend on the processing

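The replicate block moved no count of called junction genes: with it, 4 were called higher in E63R and 7 in Y48E, as without it. Of 244 alternative counts, 205 stayed within 1.5 times the value reported. Testing against 2-fold itself (glmTreat) gave 0 higher in E63R, 3 higher and 0 lower in Y48E, 0 higher for E63R minus WT, 1 higher and 0 lower for Y48E minus WT, and 0 higher for Y48E minus E63R. In untreated cells it gave 1 higher and 1 lower for E63R and 0 higher and 0 lower for Y48E. An adjusted p of 0.05 gave 7 higher in E63R, 2 lower in Y48E, 7 higher and 2 lower for Y48E minus WT, and 2 lower for untreated Y48E. With only the libraries compared, 1 was higher in E63R and 2 were lower in untreated Y48E. Without the filter, 2 were lower for Y48E minus WT, 2 higher for Y48E minus E63R and 2 lower for untreated Y48E. DESeq2 gave 2 lower for Y48E minus WT and for untreated Y48E. Leaving out 1 library at a time gave 2 to 4 higher in E63R, 0 to 1 lower in Y48E, 1 to 2 lower for Y48E minus WT, 0 to 2 higher for Y48E minus E63R and 0 to 1 higher for untreated Y48E. The cause was not tested. Depth limits Cldn10, Cldn11, Cldn15, Cldn18, Cldn19 and Cldn23, whose values were close to 3 counts in some groups. Over all genes tested, the number called higher after OHT moved with the rule as well, from 7 to 0 in the WT line, from 890 to 179 in E63R and from 2030 to 832 in Y48E when edgeR's glmTreat tested against the 2-fold limit, and from 890 to 298 in E63R when only the libraries compared entered the fit.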
